A study of Mus musculus with 16 samples.

Results

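Proteasome genes were followed in sorted lung myeloid cells of tumour-bearing mice. The set holds every gene whose symbol on the array starts with Psma to Psmg and a digit, together with Sem1 and Pomp. It comprises 52 of the 19938 genes that could be named from probe sets listing a single gene. By role there were 8 genes of the alpha ring, 8 of the beta ring, 5 immune subunits, 6 ATPases of the base, 12 other subunits of the base and lid, 3 other activators or inhibitors and 8 assembly chaperones. The remaining 2, Psmc3ip and Psme3ip1, carry a subunit's name but encode partner proteins.

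The arrays hold RNA of flow-sorted CD11c+/MHC2+/CD11b+ myeloid cells, which the submitters name CD11b+ DCs. The hosts were immunocompetent C57BL/6 mice that had received Lewis lung carcinoma (LLC) cells, a syngeneic mouse lung tumour line, through the airways. All mice carried tumours, so both groups share the host and the inoculation and there was no tumour-free control. The titles give 8 arrays as tumoral, from the tumour itself, and 8 as peritumoral, from lung tissue beside it. The labels name no age, time after inoculation, animal or pool for an array. P-values therefore measure the spread between arrays, which may be technical.

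The proteasome is the barrel-shaped protease that degrades ubiquitin-tagged proteins. Its core stacks outer alpha rings, which form the gate, on inner beta rings, of which the subunits encoded by Psmb5, Psmb6 and Psmb7 carry the active sites. A cap of ATPases and non-ATPase subunits recognises, unfolds and feeds in the substrate. Interferon induces replacement catalytic subunits, encoded by Psmb8, Psmb9 and Psmb10, and the PA28 activator encoded by Psme1 and Psme2. This immunoproteasome is abundant in antigen-presenting cells, where it shapes the peptides loaded on MHC class I.

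Values are log2 array values, and differences are tumoral minus peritumoral on that scale with n = 8 arrays a group. Array medians lay between 6.75 and 6.95. The sorting marker genes Itgax (CD11c), Itgam (CD11b) and H2-Ab1 (MHC class II) were present on every array, at 11.07 or more, 10.18 or more and 13.06 or more. Several arrays stood apart. Peritumoral 4 had the highest mean of all 8 marker lists of other cell types, with an endothelial mean of 10.46 against 6.32 to 6.54 in tumoral arrays, and Itgam at its lowest. Peritumoral 7 and 8 lay on the tumoral side of peritumoral 1 to 6 for several genes. They were singled out by such values, so leaving them out widens those differences by construction. Values without them are given to show what rests on these arrays, and their p-values and calls are no support for a difference. Arrays at places 3, 6, 9, 12 and 15 of the deposited order also resembled each other, which no label accounts for. Whether the titles match the arrays could not be checked from the files, and every difference below takes the titles as given. In bulk RNA, fewer cells of a type and less transcript per cell cannot be told apart.

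Across the 52 genes, tumoral arrays lay slightly higher on average, but no gene passed the test between the titles. The difference was above 0 for 39 genes and below 0 for 13, with a median of 0.16, against 41.7% of all genes above 0 and a median of -0.02. Most of the 52 are bright genes. Among genes above the median level, 38 of 48 members were above 0, with a median of 0.16 against 0.01 for all such genes. With each array centred on its median, 43 genes were above 0 and the median was 0.21, while the median of all genes moved to 0.03. limma called 0 of the 52 at an adjusted p under 0.05, where 0% of all 19938 genes were called. At an unadjusted p under 0.05 there were 11 of 52, all higher in tumoral arrays, against 5.6% of all genes in that direction and 5.9% in the other. The 52 genes moved together over the arrays, with a median pairwise r of 0.76, so these counts are not of independent genes. For 0 of the 52 were the titles without overlap, where 0.0853% of all genes were. An exact rank-sum test also called 0, with 9 of 52 at an unadjusted p under 0.05, against 2307 of all 19938 genes in either direction. Without peritumoral 4 the median was 0.10, and without peritumoral 4 and 7 it was 0.07. Those arrays have the 2 highest endothelial list means of the series, and their part in the difference was not tested.

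**Figure D1:**
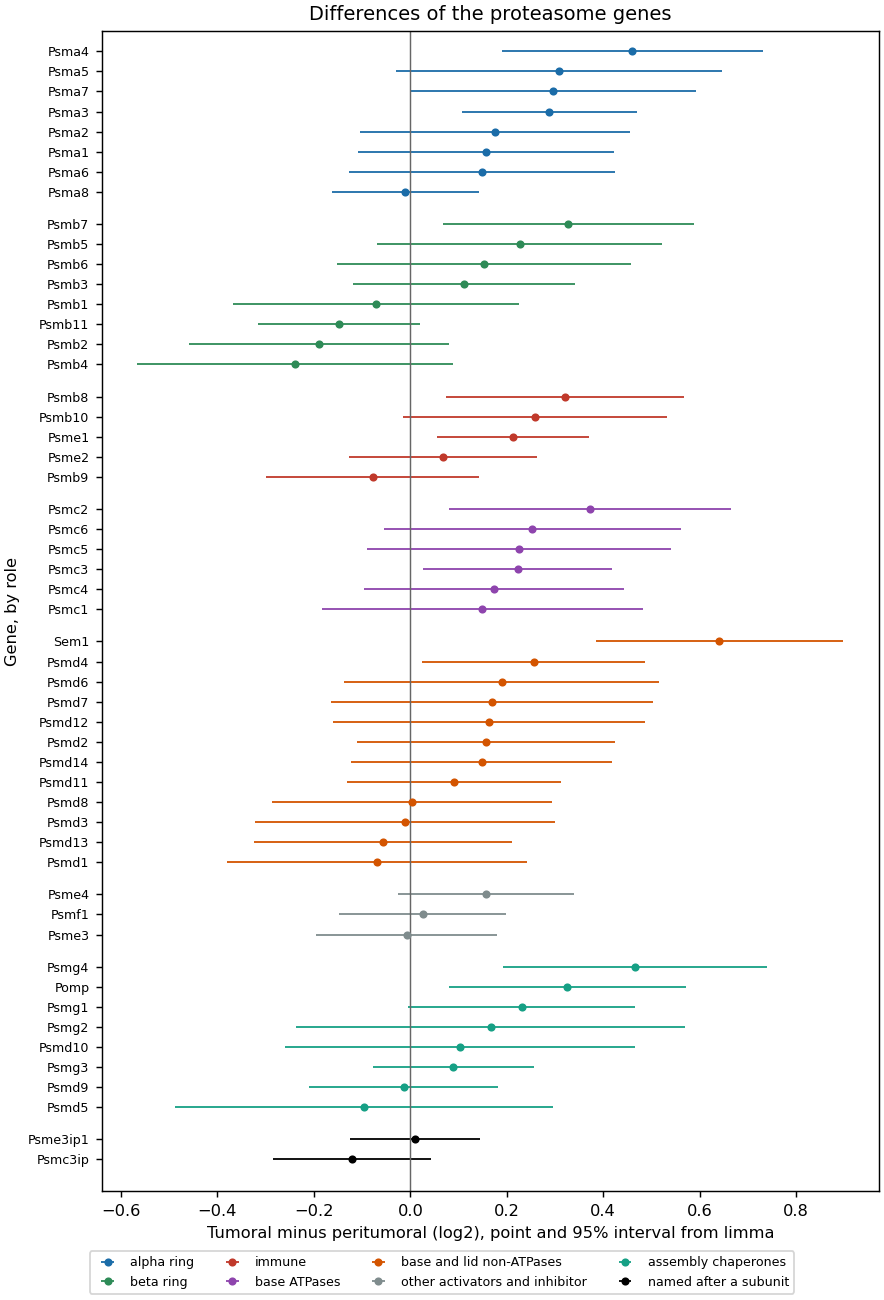
Difference between the title groups for each of the 52 genes (x axis, tumoral minus peritumoral, log2; point with 95% interval from limma), grouped by role on the y axis. Sem1 lies farthest to the right at 0.64 and Psmb4 farthest to the left at -0.24.

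Sem1 encodes the smallest subunit of the lid, a short acidic protein also found in other complexes. It measured 8.68, 8.75, 9.06, 8.42, 8.998, 8.73, 9.35 and 9.36 in peritumoral 1 to 8. In tumoral 1 to 8 it measured 9.72, 9.30, 9.60, 9.58, 9.51, 9.48, 9.81 and 9.49. Tumoral 2 was the one tumoral array below any peritumoral array, at 9.30 against 9.35 and 9.36 in peritumoral 7 and 8. The means were 9.56 ± 0.16 and 8.92 ± 0.33 (SD, n = 8), a difference of 0.64 with a standard error of 0.12, or 1.56-fold. The smallest adjusted p of any gene in limma, 0.232, was also that of Sem1, and its exact permutation p without adjustment was 0.000466. Peritumoral 7 and 8 were the peritumoral arrays nearest the tumoral group for Sem1, so the value without either is set in part by that choice. The adjusted p was 0.0200 without peritumoral 7, 0.0460 without peritumoral 8 and 0.0301 without peritumoral 4 and 7, where 0.642%, 0.1% and 0.441% of all genes were called. Without 7 and 8 together the difference was 0.79.

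Without peritumoral 7 and 8, limma called 5 of the 52 genes, where 2.62% of all genes were called. The 5 were Sem1, Psmg4, Psma3, Psma4 and Psme1, all among the 7 genes for which both of these arrays lay above peritumoral 1 to 6. The calls therefore restate that position of the arrays and are not separate evidence. The differences of the last 4 were 0.60, 0.37, 0.57 and 0.28 without the pair, and 0.47, 0.29, 0.46 and 0.21 with all 16 arrays.

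Psmg4 encodes a chaperone of alpha ring assembly. It measured 8.07, 8.33, 8.18, 7.75, 8.07, 8.07, 8.56 and 8.71 in peritumoral 1 to 8, and 8.91, 8.32, 8.68, 8.86, 8.39, 8.68, 9.03 and 8.57 in tumoral 1 to 8. Peritumoral 1 to 6 lay at or below 8.33, and tumoral 2 at 8.32 was the only tumoral array in that range. The means were 8.68 ± 0.25 and 8.22 ± 0.31 (limma, adjusted p = 0.246). Pomp encodes the maturation factor of the core, which binds beta subunits and is degraded when the core is complete. It measured 8.78, 8.78, 9.08, 8.43, 8.88, 8.97, 9.06 and 9.14 in peritumoral arrays and 9.45, 8.73, 9.19, 9.44, 9.19, 9.07, 9.55 and 9.10 in tumoral arrays. The groups overlapped, and the difference of 0.33 had a limma adjusted p of 0.319. The other chaperones differed by 0.23 (Psmg1), 0.17 (Psmg2), 0.09 (Psmg3), 0.10 (Psmd10), -0.01 (Psmd9) and -0.10 (Psmd5), the last 3 being chaperones of the base.

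**Figure D2:**
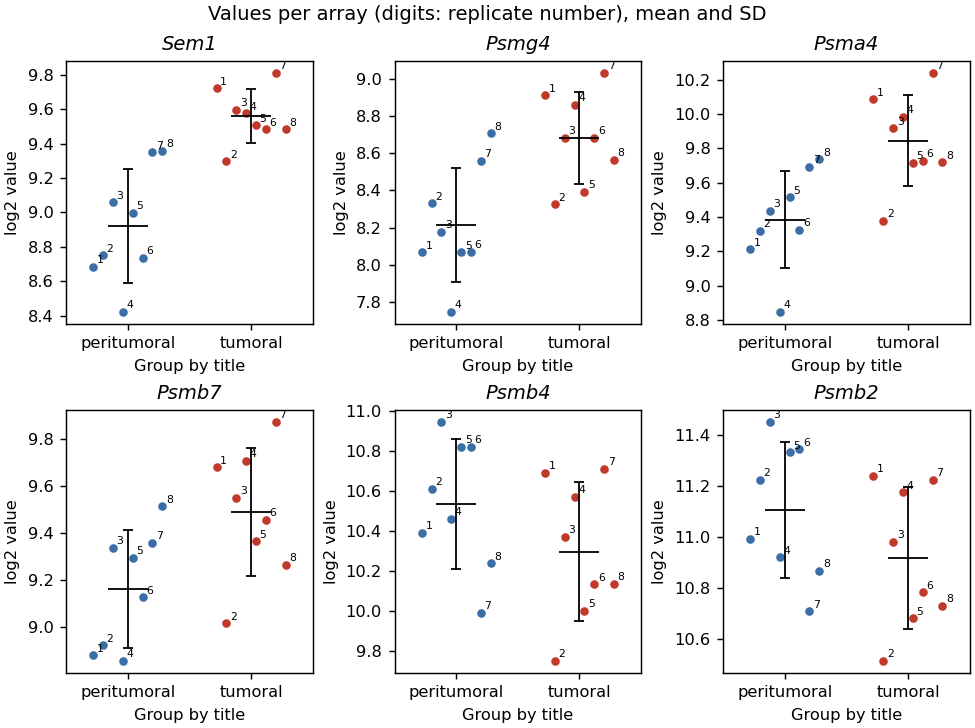
log2 values (y axis) of 6 genes in the arrays of each title group (x axis), with the mean and SD as bars and the replicate number beside each point. Sem1, Psmg4, Psma4 and Psmb7 have peritumoral 7 and 8 above the other peritumoral arrays, and Psmb4 and Psmb2 have them below.

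In the alpha ring 7 of 8 genes were higher on average, with a median difference of 0.23. Psma4 measured 9.21, 9.32, 9.43, 8.85, 9.51, 9.32, 9.69 and 9.74 in peritumoral 1 to 8, and 10.09, 9.38, 9.92, 9.98, 9.71, 9.73, 10.24 and 9.72 in tumoral 1 to 8. Only tumoral 2 lay within the range of peritumoral 1 to 6. The means were 9.84 ± 0.27 and 9.38 ± 0.28 (limma, adjusted p = 0.246). Psma3 was represented by 3 probe sets, which differed by 0.29, 0.27 and 0.32. Psma5 and Psma7 differed by 0.31 and 0.30, and Psma1, Psma2 and Psma6 by 0.15 to 0.18. A second Psma5 probe set differed by 0.39. Psma8, the testis-specific counterpart of Psma7, differed by -0.01 and stayed between 5.48 and 5.95 on all arrays.

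The beta ring was divided, with 4 genes higher and 4 lower on average and a median of 0.02. The constitutive catalytic genes were higher. Psmb7, which encodes the trypsin-like subunit, measured 8.88, 8.92, 9.34, 8.85, 9.29, 9.12, 9.36 and 9.51 in peritumoral arrays and 9.68, 9.01, 9.55, 9.71, 9.36, 9.46, 9.87 and 9.26 in tumoral arrays. Its difference was 0.33, with overlapping groups (limma, adjusted p = 0.339). Psmb5, of the chymotrypsin-like subunit, measured 10.33, 10.72, 10.83, 10.25, 10.77, 10.97, 10.55 and 10.87 against 11.24, 10.39, 10.78, 11.21, 10.73, 10.80, 11.34 and 10.62 in tumoral arrays. Psmb6, of the caspase-like subunit, measured 9.38, 9.64, 9.75, 9.19, 9.72, 9.60, 9.40 and 9.71 against 10.06, 9.06, 9.81, 10.17, 9.39, 9.63, 10.08 and 9.43. Tumoral 1, 4 and 7 were the highest arrays for both, and tumoral 2 was the lowest tumoral array. The differences of 0.23 and 0.15 were smaller than the spread within the groups (limma, adjusted p = 0.541 and 0.705).

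Psmb4 and Psmb2 encode non-catalytic beta subunits and lay lowest of all 52 differences. Psmb4 measured 10.39, 10.61, 10.94, 10.46, 10.82 and 10.82 in peritumoral 1 to 6, then 9.99 and 10.24 in peritumoral 7 and 8. In tumoral 1 to 8 it measured 10.69, 9.75, 10.37, 10.57, 10.002, 10.13, 10.71 and 10.14. Peritumoral 7 and 8 thus lay below all of peritumoral 1 to 6, within the tumoral range. Psmb2 measured 10.99, 11.23, 11.45, 10.92, 11.33, 11.34, 10.71 and 10.87 against 11.24, 10.51, 10.98, 11.18, 10.68, 10.78, 11.23 and 10.73, with peritumoral 7 and 8 again lowest of their group. The differences were -0.24 and -0.19 (limma, adjusted p = 0.565 and 0.584). Psmb1 and Psmb3, also structural, differed by -0.07 and 0.11, and a second Psmb3 probe set by 0.06. Psmb11, the catalytic subunit of thymic epithelium, differed by -0.15 and ran from 6.21 to 6.76.

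Peritumoral 7 and 8 both lay above the range of peritumoral 1 to 6 for 7 of the 52 genes, against 4.54% of all genes. These were Psma3, Psma4, Psmb7, Psmb8, Psme1, Psmg4 and Sem1. Both lay below that range for 4 genes, Psmb2, Psmb4, Psmd5 and Psmc3ip, against 6.78% of all genes. This is a description of those arrays, chosen after their values were seen.

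The 6 ATPases of the base, which unfold the substrate, were all higher on average, with a median of 0.22. Psmc2 measured 7.67, 7.75, 8.27, 7.59, 8.12, 8.08, 8.05 and 8.23 in peritumoral arrays and 8.59, 7.87, 8.50, 8.71, 8.13, 8.18, 8.74 and 8.03 in tumoral arrays. The groups overlapped from 7.87 to 8.27, and the difference of 0.37 had a limma adjusted p of 0.330. The other 5 differed by 0.15 (Psmc1) to 0.25 (Psmc6) in the probe sets kept, and a second Psmc1 probe set differed by 0.27. Of the 12 non-ATPase subunits 9 were higher and 3 lower, with a median of 0.15. After Sem1 came the ubiquitin receptor gene Psmd4, at 8.76 ± 0.24 against 8.51 ± 0.23. The deubiquitinase gene Psmd14 differed by 0.15, and the scaffold genes Psmd2 and Psmd1 by 0.16 and -0.07. A second Psmd2 probe set differed by 0.05. Psmd8, Psmd3 and Psmd13 differed by 0.00, -0.01 and -0.06. Of the other regulators, Psme4, which encodes the PA200 activator, measured 9.44, 9.37, 9.65, 9.15, 9.52, 9.48, 9.52 and 9.58 in peritumoral and 9.66, 9.32, 9.64, 9.96, 9.60, 9.55, 9.79 and 9.45 in tumoral arrays. The groups overlapped, with means of 9.62 ± 0.20 against 9.46 ± 0.15 (limma, adjusted p = 0.501). Psme3, of the nuclear activator PA28 gamma, and Psmf1, of the inhibitor PI31, differed by -0.01 and 0.03.

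The immune subunits did not move as a block between the titles. Psmb8 (0.32), Psmb10 (0.26) and Psme1 (0.21) were higher on average in tumoral arrays, Psme2 differed by 0.07 and Psmb9 by -0.08. limma called 0 of the 5. At an unadjusted p under 0.05 there were 2, Psme1 and Psmb8, both higher, against 5.6% of all genes in that direction. Psmb8 and Psmb9 lie close together in the MHC class II region of chromosome 17.

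Psmb8, which replaces the Psmb5 product, measured 9.44, 9.53, 9.29, 8.92, 9.41, 9.22, 9.59 and 9.71 in peritumoral 1 to 8. In tumoral 1 to 8 it measured 9.88, 9.22, 9.69, 9.87, 9.66, 9.68, 10.08 and 9.59. All tumoral arrays except 2 lay above peritumoral 1 to 6. The difference of 0.32 had a 95% interval of 0.07 to 0.57 (limma, adjusted p = 0.327).

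Psmb9, which replaces the Psmb6 product, measured 9.69, 9.86, 9.55, 9.52, 9.74, 9.35, 9.26 and 9.51 in peritumoral arrays. Tumoral arrays gave 9.71, 9.08, 9.43, 9.62, 9.33, 9.46, 9.85 and 9.40. Peritumoral 2 was as high as tumoral 7, and the groups overlapped over nearly their whole range. The difference of -0.08 had a 95% interval of -0.30 to 0.14 (limma, adjusted p = 0.808).

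Psmb10, which replaces the Psmb7 product, measured 9.56, 9.73, 9.59, 9.27, 9.86, 9.84, 9.72 and 9.98 in peritumoral arrays. Tumoral arrays gave 10.18, 9.41, 9.95, 10.23, 9.84, 9.86, 10.43 and 9.70, so that tumoral 1, 4 and 7 exceeded every peritumoral array. The interval of its difference ran from -0.01 to 0.53 (limma, adjusted p = 0.459).

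The PA28 genes had narrower ranges. Psme1 measured 10.25, 10.31, 10.17, 10.002, 10.28, 10.09, 10.35 and 10.58 in peritumoral and 10.53, 10.28, 10.42, 10.47, 10.41, 10.54, 10.64 and 10.44 in tumoral arrays. Peritumoral 8 was the second highest array of all. Psme2 measured 10.53, 10.64, 10.50, 10.35, 10.59, 10.15, 10.41 and 10.64 against 10.70, 10.24, 10.61, 10.62, 10.38, 10.62, 10.86 and 10.32. The 95% intervals were 0.06 to 0.37 for Psme1 and -0.13 to 0.26 for Psme2 (limma, adjusted p = 0.314 and 0.812).

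Since immune catalytic subunits take the place of constitutive ones, the log2 difference within each array was compared between the titles for the 3 pairs. Psmb8 over Psmb5 differed by 0.09, Psmb9 over Psmb6 by -0.23 and Psmb10 over Psmb7 by -0.07 between tumoral and peritumoral arrays. Exact two-sided permutation gave p = 0.421, 0.0570 and 0.357, and adjusted over the 3 pairs 0.421, 0.171 and 0.421. No pair separated the titles, and the levels within a pair cannot be compared because they come from different probes.

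Promoter sequences are shown for 3 immune subunits that differed in their pattern and for Sem1, the gene with the largest difference. They come from RefSeq (GRCm38.p6) and run from 250 bases before to 50 bases after the annotated start, 5′ to 3′ on the gene's strand. A window was found for 44 of the 52 genes. Capitals mark matches on either strand to the interferon-stimulated response element (GAAA, any 2 bases, GAAA), the gamma-activated site TTCNNNGAA or the antioxidant response element core TGANNNNGC, which Nfe2l1 and Nfe2l2 bind.
Psmb8, chr17:34197945-34198244, plus strand: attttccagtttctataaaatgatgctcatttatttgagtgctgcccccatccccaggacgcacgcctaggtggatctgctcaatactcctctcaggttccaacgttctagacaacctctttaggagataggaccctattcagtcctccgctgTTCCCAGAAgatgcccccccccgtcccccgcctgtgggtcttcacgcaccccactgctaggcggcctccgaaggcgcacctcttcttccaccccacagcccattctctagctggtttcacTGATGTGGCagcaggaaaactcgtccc
Psmb9, chr17:34187281-34187580, minus strand: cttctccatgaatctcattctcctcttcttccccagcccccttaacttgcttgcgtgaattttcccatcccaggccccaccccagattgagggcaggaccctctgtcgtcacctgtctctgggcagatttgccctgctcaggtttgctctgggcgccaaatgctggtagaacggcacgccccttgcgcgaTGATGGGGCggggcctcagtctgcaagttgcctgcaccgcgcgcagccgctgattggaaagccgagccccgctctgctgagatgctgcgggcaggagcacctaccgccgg
Psme1, chr14:55578244-55578543, plus strand: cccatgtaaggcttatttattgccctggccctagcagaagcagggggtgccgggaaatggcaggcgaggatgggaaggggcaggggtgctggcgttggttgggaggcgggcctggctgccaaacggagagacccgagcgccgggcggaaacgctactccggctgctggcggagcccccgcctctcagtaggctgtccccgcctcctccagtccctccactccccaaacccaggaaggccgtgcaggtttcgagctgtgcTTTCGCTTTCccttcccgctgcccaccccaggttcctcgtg
Sem1, chr6:6578609-6578908, minus strand: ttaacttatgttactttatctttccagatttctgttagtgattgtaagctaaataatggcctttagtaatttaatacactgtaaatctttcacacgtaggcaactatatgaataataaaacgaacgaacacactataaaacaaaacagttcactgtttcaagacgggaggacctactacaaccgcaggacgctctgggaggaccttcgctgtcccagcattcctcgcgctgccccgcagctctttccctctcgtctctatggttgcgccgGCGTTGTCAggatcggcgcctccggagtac

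Psmb8 held a gamma-activated site 97 bases before its start, with the letters TTCCCAGAA. Psme1 held an interferon-stimulated response element 9 bases after its start, read as TTTCGCTTTC on the gene's strand. The window of Psmb9 held neither set of letters. Of all 27025 genes with a window of 300 bases, 3.99% held the interferon-stimulated element, 9.55% the gamma-activated site and 45.05% the antioxidant core. Among the 44 genes, 5 held the first (Psmb3, Psmd4, Psmd9, Psme1 and Psmg4), 3 the second (Psmb8, Psmd2 and Psmg1) and 26 the last, Sem1, Psmb8 and Psmb9 among them. Some of these matches share bases, as in Psmg4, and all are descriptions of sequence only.

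Across the 16 arrays most of the 52 genes moved together, along an axis other than the titles. The correlation of a gene with the mean of the other members had a median of 0.90 and was at least 0.8 for 35 genes, where 10% of other genes correlated that closely with the mean of the set. Psmd2 followed that mean most closely (r = 0.99) and the 6 ATPases all did so (r = 0.91 to 0.98). The 5 genes below 0.5 were Psmb11 (-0.58), Psmg3 (-0.06), Psmc3ip (0.25), Psma8 (0.46) and Psmb9 (0.48). Sem1 reached 0.57. These correlations are descriptions over arrays that share normalization and cell preparation.

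The mean deviation of the set from each gene's own average was -0.25, -0.05, 0.15, -0.40, 0.03, 0.08, -0.14 and 0.03 in peritumoral 1 to 8. In tumoral 1 to 8 it was 0.32, -0.35, 0.12, 0.31, -0.10, -0.02, 0.39 and -0.11. Peritumoral 4 was the lowest array for 28 of the 52 genes and tumoral 2 for 16, where 16.02% and 17.8% of all genes had their minimum. Tumoral 7 was the highest for 33, against 5.77% of all genes. The spread within each title was thus far wider than the distance of 0.14 between the tumoral mean of 0.07 and the peritumoral mean of -0.07.

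In the deposited order, with peritumoral 1 to 8 first and tumoral 1 to 8 after them, the arrays at places 3, 6, 9, 12 and 15 stood above their neighbours. Peritumoral 3 was higher than both adjacent arrays for 42 of the 52 genes, peritumoral 6 for 34, tumoral 1 for 50, and tumoral 4 and 7 for 48 each. The shares of all genes were 35.3%, 43.6%, 36.9%, 38.8% and 35.2%. At all 5 of these places 29 of the 52 were higher than both neighbours, against 18.7% of all genes. The arrays that followed, peritumoral 4, peritumoral 7, tumoral 2 and tumoral 5, were lower than both neighbours for 49, 41, 50 and 43 genes, against 40.9%, 44.3%, 39.2% and 22.8% of all genes.

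Most structural and immune subunits parted at the peritumoral places of this sequence. Of 34 genes of the rings, base and lid, 32 were higher than both neighbours in peritumoral 3 and 25 in peritumoral 6. Of the 5 immune subunits, 0 were higher there, and all 5 were instead higher than both neighbours in peritumoral 2 and 5, against 36.2% and 25.6% of all genes. Psmb10 was nearly level between peritumoral 5 and 6, at 9.86 and 9.84, so its place in these counts is a narrow one. In tumoral 1, 4 and 7 the structural genes numbered 33, 31 and 32 of 34 and the immune subunits 4, 5 and 5 of 5. In peritumoral 3 and 6 the non-ATPase subunits of base and lid averaged 0.25 and 0.13, and the beta ring 0.18 and 0.20. The base ATPases averaged 0.18 and 0.04, and the alpha ring 0.09 and -0.02. Only 4 of 8 alpha ring genes were higher than both neighbours in peritumoral 6. The immune subunits averaged -0.13 and -0.22 in peritumoral 3 and 6. This difference between subunit classes follows no label and was not tested.

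**Figure D3:**
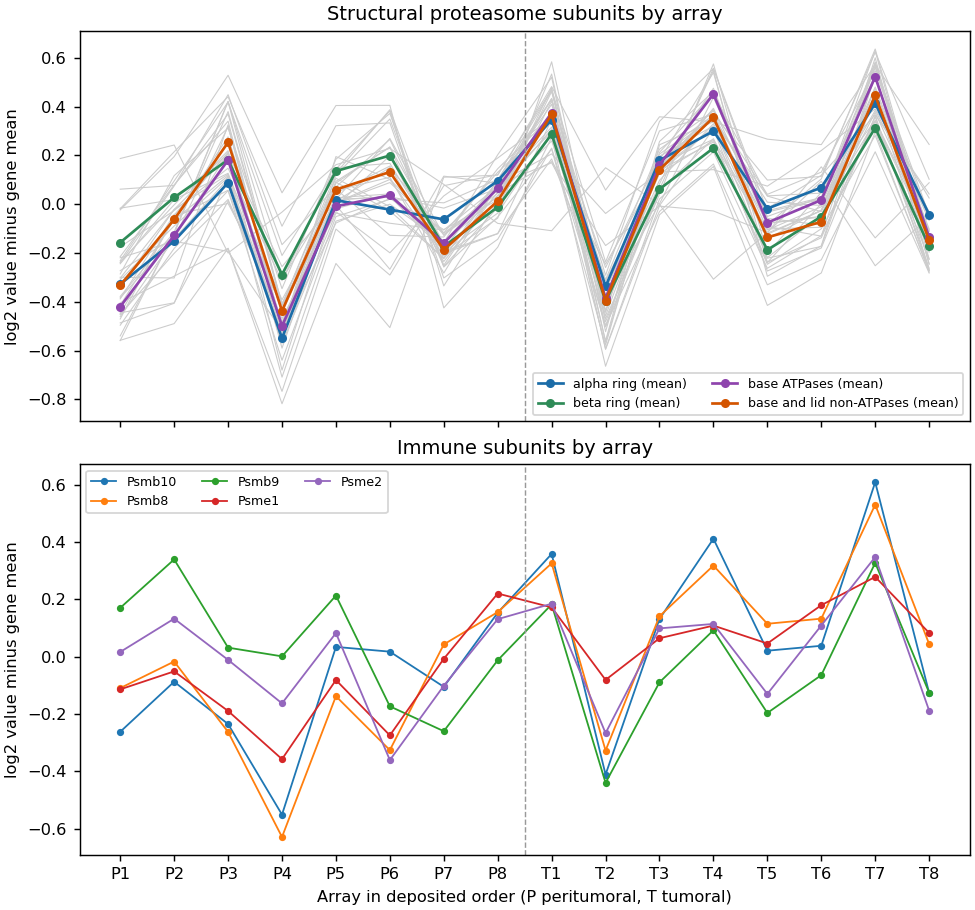
log2 value minus each gene's mean (y axis) in the 16 arrays in deposited order (x axis), for 34 structural genes (upper panel, grey lines, with means by role) and the 5 immune subunits (lower panel). Structural means peak at peritumoral 3 and at tumoral 1, 4 and 7, and all but the alpha ring also at peritumoral 6. The immune subunits share the tumoral peaks and not those at peritumoral 3 and 6. Their mean is highest of the peritumoral arrays in 8, at 0.13.

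The markers of the sorted cells varied along the same order. The mean deviation of 10 dendritic cell marker genes was -0.24 and -0.33 in peritumoral 3 and 6 and -0.23, -0.23 and -0.10 in tumoral 1, 4 and 7. Peritumoral 4 measured -0.37 for that list, and the other 10 arrays lay between 0.02 and 0.25. The list did not move as one. Flt3, Irf4 and Zbtb46, genes of dendritic cell identity, were lowest in those 5 arrays, with Flt3 at 8.89, 8.73, 8.78, 8.74 and 9.25 against 9.39 or more elsewhere. Itgam and Sirpa, shared with macrophages and monocytes, were highest in the same arrays, with Itgam at 11.80, 11.68, 11.53, 11.62 and 11.62 and Sirpa at 12.14, 12.22, 12.13, 12.17 and 12.03. Brighter genes as a whole also shifted: those above the median level deviated by 0.06, 0.04, 0.05, 0.11 and 0.08 in the same 5 arrays and by -0.17 in tumoral 2. After quantile normalization the set still averaged 0.10, 0.05, 0.27, 0.20 and 0.30 there, and -0.37 and -0.19 in peritumoral 4 and tumoral 2. The part of these marker and brightness shifts in the proteasome values was not tested.

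With the place in the order, in steps of 3, as a term in limma, 0 of the 52 genes passed at 0.05, where 0% of all genes did. At 0.10 there were 6, Sem1 (adjusted p = 0.0795), Psma4, Psmg4, Psmc2, Psma3 and Psmc3, each higher in tumoral arrays, against 3.33% of all genes. This term was chosen after the data were seen.

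Immune subunits were set against interferon-response genes, since interferon is their known inducer. The lists were 17 genes of the type I response, such as Oas1a and Ifit1, and 11 of the interferon gamma response, such as Gbp5 and Cxcl9. Over the 16 arrays Psmb10 correlated with the type I list at r = 0.86 (Spearman 0.87; permutation p = 1e-05, the smallest 100000 resamples can give, adjusted p = 0.0001). The 10 relations of 5 genes with 2 lists had r from 0.54 to 0.86, and all 10 passed after adjustment. Without the 2 arrays farthest from the median of the list (tumoral 1 and 7 for type I, tumoral 1 and 4 for gamma), 6 of 10 passed, with r from 0.41 to 0.86. The other 4 kept their sign over 14 arrays and missed the threshold. For the type I list r went from 0.65 to 0.51 for Psme1 and from 0.57 to 0.41 for Psmb9. For the gamma list it went from 0.54 to 0.47 for Psme1 and from 0.66 to 0.56 for Psmb8.

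Within tumoral arrays r ran from 0.75 to 0.93 and all 10 relations passed an exact permutation test, with adjusted p up to 0.0265. Tumoral 1, 4 and 7, which belong to the sequence described above, had the highest type I list values, at 0.95, 0.70 and 0.83. The other tumoral arrays lay at 0.35 or less. The test treats all tumoral arrays as interchangeable, so it cannot tell a relation of these genes from that shared rise. Within peritumoral arrays r ran from 0.22 to 0.68 and 0 of 10 passed, with adjusted p from 0.311 to 0.609. Whether the groups differ in this was not tested. The constitutive Psmb5, Psmb6 and Psmb7 correlated with the type I list at 0.84, 0.89 and 0.80. Of all 52 genes, 44 reached 0.54, against 14.98% of all genes, so the relation was not limited to immune subunits.

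**Figure D4:**
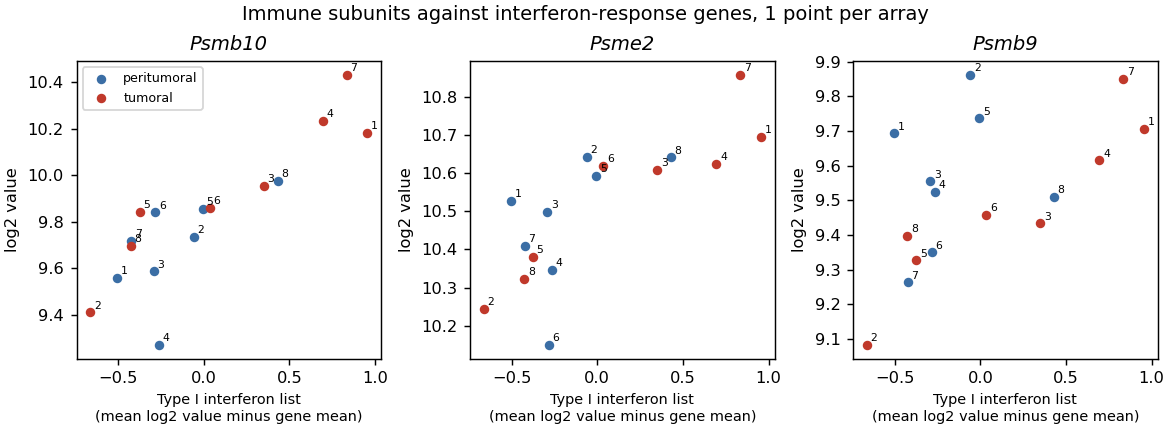
log2 value of Psmb10, Psme2 and Psmb9 (y axis) against the mean deviation of the type I interferon list (x axis, log2), 1 point per array, coloured by title and numbered by replicate. Tumoral 1, 4 and 7 lie farthest to the right in each panel. For Psmb9, peritumoral 1 to 5 and 8 lie above the tumoral array nearest in interferon level. Peritumoral 6 lies close to that array and peritumoral 7 below it.

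Among genes around the proteasome, 0 of 74 in 7 lists passed in limma, with 15 at an unadjusted p under 0.05, 14 higher and 1 lower, against 5.6% and 5.9% of all genes. The 1 lower gene was Nfe2l1, the transcription factor that restores proteasome gene expression when activity is short. It measured 9.55, 9.52, 9.62, 9.63, 9.51, 9.57, 9.13 and 9.29 in peritumoral 1 to 8 and 9.29, 9.12, 9.23, 9.33, 9.18, 9.24, 9.36 and 9.18 in tumoral 1 to 8. Peritumoral 1 to 6 lay above every tumoral array, and peritumoral 7 and 8 lay within the tumoral range. The difference was -0.24 (limma, adjusted p = 0.256), and -0.33 without peritumoral 7 and 8 or -0.29 without peritumoral 7 alone. limma called Nfe2l1 in both settings, which drop arrays that lay in the tumoral range and so give no separate support. Of 8 regulators 5 were higher and 3 lower, with a median of 0.07 and Maff, a small partner of Nfe2l1, at 0.31.

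Of 8 ubiquitin and shuttle genes 6 were higher, with a median of 0.14. The shuttle genes Ubqln2 and Rad23b, which carry ubiquitinated proteins to the cap, differed by 0.20 and 0.22. Of 9 proteasome-associated genes 7 were higher, with a median of 0.13, Zfand5, a proteasome activator, at 0.18 and Txnl1, a thioredoxin bound to the cap, at 0.27. Akirin2, which brings proteasomes into the nucleus, differed by 0.04. Of 12 interferon receptor and transcription factor genes 9 were higher, with a median of 0.09. Irf1, which drives immune subunit transcription, measured 9.74, 9.99, 9.56, 10.56, 10.10, 9.58, 10.53 and 10.34 in peritumoral arrays and 10.34, 10.28, 10.13, 10.34, 10.54, 10.51, 10.61 and 10.50 in tumoral arrays. Its difference was 0.36 (limma, adjusted p = 0.363), and Irf2 differed by 0.14. Irf1 was lowest in peritumoral 3 and 6, where 0 of the 5 immune subunits were higher than both neighbours in the order. It was highest of the peritumoral arrays in 4, where Psmb8 and Psmb10 were lowest. That array also had the highest mean of all 8 marker lists of other cell types. Not exceeding both neighbours is not the same as a low level, since Psmb10 measured 9.84 in peritumoral 6 against a peritumoral mean of 9.69. The relation of Irf1 to the immune subunits was not tested.

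Of 9 genes of class I peptide loading 8 were higher, with a median of 0.10. Pdia3, a chaperone of the loading complex, measured 11.79 ± 0.16 against 11.46 ± 0.16, and Erap1, which trims peptides after the proteasome, 8.998 ± 0.23 against 8.68 ± 0.19 (limma, adjusted p = 0.239 and 0.275). Pdia3 differed by 0.37 without peritumoral 7, its highest peritumoral array, and by 0.39 without peritumoral 7 and 8, and limma called it in both settings, with the limit given above. Tap1, the peptide transporter gene next to Psmb9, measured 9.60, 9.82, 9.55, 9.74, 9.92, 9.55, 9.61 and 10.01 in peritumoral arrays and 10.12, 9.33, 9.92, 10.11, 9.67, 9.80, 10.23 and 9.60 in tumoral arrays. It shared its tumoral peaks with Psmb9 but was chosen after its values were seen. The type I list had 16 of 17 genes higher, a median of 0.38 and Oas1a and Oas3 at 0.54 and 0.47. The gamma list had 8 of 11 higher, a median of 0.18 and the guanylate-binding protein genes Gbp3 and Gbp5 at 0.43 and 0.37. Gbp3 and Oas1a differed by 0.53 and 0.67 without peritumoral 7 and 8, where limma called both. In that setting 2.62% of all genes were called, and these calls carry the same limit.

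Marker lists of other cell types were lower on average in tumoral arrays, and each list mean was highest in peritumoral 4. All 10 endothelial genes (median -0.83), all 9 of fibroblasts (-0.37), all 10 of lung epithelium (-0.58), all 5 of T cells (-0.37), all 5 of NK cells (-0.37), all 4 of B cells (-0.29) and all 6 of alveolar macrophages (-0.13) were lower on average. Of 8 neutrophil genes 7 were lower (-0.41), and 0 genes of these lists passed in limma, with 16 at an unadjusted p under 0.05, all lower, against 5.9% of all genes. The list means of peritumoral arrays ran from 6.39 to 10.46 for endothelium and from 6.94 to 8.95 for fibroblasts, against 6.32 to 6.54 and 6.56 to 6.99 in tumoral arrays. These averages rest in part on peritumoral 4. The B cell list deviated by 2.39 there, against -0.88 to 0.25 in other peritumoral and -0.81 to 0.41 in tumoral arrays. For NK cells it was 1.88, against -0.13 to 0.03 and -0.26 to 0.04. For alveolar macrophages it was 1.48, against -0.63 to 0.26 and -0.57 to 0.23. Differences without that array are not given for these lists. Of the 10 dendritic cell markers 9 were higher, with a median of 0.05. The part of these other cells in the proteasome differences was not tested, beyond the values without peritumoral 4 and 7 given above.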

How the data were processed

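The arrays are Affymetrix whole-transcript arrays, with RNA amplified by the Ambion WT Expression Kit and biotin-labelled, per the labels' protocols. The authors deposited a table of 28853 probe sets by 16 arrays, read as log2 values because they run from 2.31 to 14.33. The log base and the authors' background correction and normalization are each not given in the sources used here. Scanner files were not used here, so detection and scan batches were not examined. Precision is limited by the number of arrays.

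Genes were assigned by the platform annotation: 21789 list 1 symbol, 1621 several and 5443 none. The probe set with the highest mean was kept for the 999 genes with several, 5 of the 52 among them, leaving 19938 genes; 1 probe set shared by Psme2 and Psme2b was left out. RefSeq symbols (GRCm38.p6) changed 0 names. RefSeq lists pseudogenes of Psma5, Psmb5, Psmb6 and Psmb7, whose transcripts the arrays may not separate.

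limma 3.58.1 in R 4.3.3 was fitted to all 19938 genes, with Benjamini-Hochberg adjustment and a threshold of 0.05. The fit had 14 residual degrees of freedom, title as the only term and no filter. The code was also run on simulated data with independent noise for each gene and array. Those data lack the shared movement of the real arrays, so that run does not bear on the results here. A list's value on an array is the mean over its genes of the value minus that gene's mean over arrays. Named genes were the immune and constitutive catalytic subunits, Sem1, Pomp, the smallest p in each role, the 2 largest and smallest differences, 2 genes with the smallest p per list, Irf1, Nfe2l1, Akirin2 and the sorting markers. Of 91 list genes fixed, 74 were used, and the rest were not used here. The members and lists were chosen with earlier results of these data known.

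Alternatives were blocks on the replicate number, quantile normalization, median centring, a filter, array weights, trended variances, averaging a gene's probe sets, each array or arrays 4 and 7 or 7 and 8 left out, a rank-sum test and a threshold of 0.10.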

Additional observations from a re-analysis of the deposited data

How the results depend on the processing

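Counts of called genes depended on peritumoral 7 and 8. Without both, limma called 5 of the 52 proteasome genes, 1 immune subunit and 4 genes of the surrounding lists, against 0, 0 and 0 with all arrays. In that setting 2.62% of all genes were called, and since the pair was chosen for lying on the tumoral side these calls are no separate evidence. Without peritumoral 4 and 7 it called 1 of the 52. With 1 array left out the counts ran from 0 to 1 for the 52 and from 0 to 2 for the lists. For Sem1 the difference was 0.63 without peritumoral 4 and 7, 0.79 without peritumoral 7 and 8, and 0.57 to 0.70 with 1 array left out. It passed in the first 2 settings and without peritumoral 7 or 8 alone. Its groups did not overlap after quantile normalization, without peritumoral 7 and 8 or without tumoral 2. The number of the 52 proteasome genes without overlap was therefore 1, 1 and 1 there (0 to 1 with 1 array left out). With all arrays 17 of all 19938 genes had no overlap, and the count over all genes is not given for the other settings. Itgam turned to -0.091 without peritumoral 4 and 7 (-0.059 to 0.17 with 1 array left out). After quantile normalization 3 relations no longer passed: Psmb9 with the type I list (r = 0.37) and the gamma list (r = 0.51), and Psme1 with the gamma list (r = 0.42). With 1 array left out r ran from 0.48 to 0.67 for Psmb9 with the type I list and from 0.44 to 0.61 for Psme1 with the gamma list. The cause was not tested. With the replicate number as a block limma called 0 genes and Sem1 differed by 0.64 (adjusted p = 0.360); the block on pairs gave 0.09, -0.23 and -0.07 for the subunit pairs and changed no call. The titles share replicate numbers, but the deviations of same-numbered arrays from their group means correlated at -0.56 to 0.29, so the numbers were not taken as pairs.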
